A study of Rattus norvegicus with 14 samples.

Results

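The parental S16 Schwann cell line was compared with adult rat sciatic nerve at transcription start sites (TSSs) that the authors had selected near SOX10-bound, H3K4me3-marked promoters of the nerve. The question was which of the TSSs active in nerve the line keeps, loses or exceeds. A TSS was included where at least 2 of the 4 libraries compared were above 1 RPM, the unit of reads scaled to the total of the library, and 4659 of the 4993 candidate TSSs (93.3%) met this minimum. The other 334 (6.69%) did not. Just inside the minimum, the second highest of the 4 values was 1.003 RPM, and just outside it was 0.9946 RPM. The included TSSs lay at 2937 named genes, and 251 of them carried no gene symbol.

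The 5′ ends of transcripts were captured by Tn5Prime. In this method a template-switching oligo marks the end of the cDNA that corresponds to the start of the RNA. Reads therefore mark transcript starts and not the whole transcript, and the libraries were selected for fragment size. Sciatic nerve came from wild type adult rats of 6 to 9 months, as 2 independent nerves with 1 library each. S16 is an immortalized rat Schwann cell line of the myelinating type, here with wild type genotype and no treatment, kept in medium with 10% FBS, glutamine and pen-strep. Its 2 libraries were separate RNA isolations of 1 line. All 4 libraries were sequenced on HiSeq instruments. Primary Schwann cells, either control-treated (3 libraries) or given 250 µM CPT-cAMP (3 libraries) and sequenced on a NovaSeq instrument, were also used, as were 4 clones of S16 cells in which Sox10 had been deleted (ΔSOX10, HiSeq). A nerve is a tissue of several cell types and S16 is a cultured line, so that tissue, immortalization and culture cannot be told apart, and in bulk samples fewer cells of a type cannot be told apart from less RNA per cell. The p-values measure the spread between these libraries only. Since the authors chose every candidate as active in nerve, TSSs used by S16 cells alone are outside this set.

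Schwann cells ensheath the axons of peripheral nerves, and the myelinating ones wrap a single axon segment in compact myelin built from proteins such as PMP22 and MBP and from lipids rich in cholesterol. The transcription factor SOX10 is needed throughout the lineage and, with EGR2, activates myelin genes. Immature and injury-activated Schwann cells carry the neurotrophin receptor NGFR and the transcription factor JUN, divide, and have little myelin gene expression. A gene can start transcription at several TSSs, so that 1 TSS of a gene may be used in a cell line while another is not.

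Promoter sequences of 6 genes whose TSSs stood out are shown here, a pair for each outcome of the comparison, to give a view of the regulatory sequence behind the values. They are from RefSeq (build GRCr8), 250 bases before to 50 after the annotated gene start. The table's TSS positions are in rn5, so these windows were not placed on the listed TSSs, and for Pmp22 it was not determined which of its TSSs the window covers. Capitals mark CCAAT (the CCAAT box), GGGCGG (the GC box) and TATAAA (the TATA box) on either strand, so that a match on the other strand is printed as its reverse complement. No match overlapped another in these windows, and the last 2 GC boxes of Tnfrsf12a adjoin. Of 33469 RefSeq rat promoters of this length, 37.5% held CCAAT, 33.1% GGGCGG and 14.2% TATAAA. Of the 2937 genes, 2356 (80.2%) had a promoter in the RefSeq table, but only 72.9% of those with a lower main TSS in S16 did, so motif shares were not compared between groups of genes. The first pair belongs to genes lower in S16, Ncmap (chr5:152902365-152902664, minus strand) and Mal (chr3:135341374-135341673, minus strand). Pmp22 (chr10:48294682-48294981, plus strand) and Dbi (chr13:33802569-33802868, minus strand) had a TSS kept at the nerve level. Vim (chr17:81577011-81577310, plus strand) and Tnfrsf12a (chr10:13213599-13213898, minus strand) were higher in S16.
Ncmap: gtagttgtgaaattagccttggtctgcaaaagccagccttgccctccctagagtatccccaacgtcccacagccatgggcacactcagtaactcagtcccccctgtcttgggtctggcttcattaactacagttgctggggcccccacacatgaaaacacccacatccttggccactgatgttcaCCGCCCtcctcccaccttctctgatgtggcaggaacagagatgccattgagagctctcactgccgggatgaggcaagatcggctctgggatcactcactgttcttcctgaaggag
Mal: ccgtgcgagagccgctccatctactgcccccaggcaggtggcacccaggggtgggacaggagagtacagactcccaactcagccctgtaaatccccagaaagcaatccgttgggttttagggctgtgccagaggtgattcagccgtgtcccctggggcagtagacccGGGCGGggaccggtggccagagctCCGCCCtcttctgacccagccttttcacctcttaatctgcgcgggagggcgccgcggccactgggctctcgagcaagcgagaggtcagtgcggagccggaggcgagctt
Pmp22: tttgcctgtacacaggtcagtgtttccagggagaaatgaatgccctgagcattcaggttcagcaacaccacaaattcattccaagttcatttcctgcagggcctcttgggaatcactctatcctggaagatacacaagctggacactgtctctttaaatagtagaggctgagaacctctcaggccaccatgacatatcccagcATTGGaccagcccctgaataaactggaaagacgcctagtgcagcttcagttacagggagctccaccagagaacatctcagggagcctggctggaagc
Dbi: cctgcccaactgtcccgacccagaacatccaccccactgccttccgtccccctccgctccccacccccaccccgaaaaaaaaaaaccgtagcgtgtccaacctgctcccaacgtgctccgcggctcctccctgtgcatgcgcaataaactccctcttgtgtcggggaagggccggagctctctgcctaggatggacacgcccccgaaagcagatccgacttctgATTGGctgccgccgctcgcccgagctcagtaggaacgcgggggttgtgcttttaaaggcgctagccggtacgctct
Vim: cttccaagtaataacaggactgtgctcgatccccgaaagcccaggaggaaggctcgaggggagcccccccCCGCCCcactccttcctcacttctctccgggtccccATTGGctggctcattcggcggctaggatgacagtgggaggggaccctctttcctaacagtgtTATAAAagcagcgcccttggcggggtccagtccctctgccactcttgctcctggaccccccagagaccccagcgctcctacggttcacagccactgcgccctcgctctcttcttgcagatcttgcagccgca
Tnfrsf12a: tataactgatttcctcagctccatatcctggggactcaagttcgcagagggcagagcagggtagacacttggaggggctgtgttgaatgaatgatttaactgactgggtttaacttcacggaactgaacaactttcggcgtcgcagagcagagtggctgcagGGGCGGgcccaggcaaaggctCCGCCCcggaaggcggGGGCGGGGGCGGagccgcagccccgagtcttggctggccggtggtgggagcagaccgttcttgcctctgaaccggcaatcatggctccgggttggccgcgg
The Ncmap window held 1 GC box on the other strand, 65 bases before the gene start, and the Mal window held 2, starting 83 and 59 bases before it. The windows of Pmp22 and Dbi each held 1 CCAAT box on the other strand, 47 and 26 bases before the start. Vim held 1 match to each motif, with the TATA box 82 bases before the start, and Tnfrsf12a held 4 GC boxes between 88 and 45 bases before it.

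The nerve libraries held 29895599 and 38377828 reads and the S16 libraries 44237083 and 38577603. Here 3 reads, the smallest number treated as a level, corresponded to 0.1 and 0.0782 RPM in nerve and to 0.0678 and 0.0778 RPM in S16, which is also the level that a count of 0 allows. No molecular identifiers are named in the study's methods, so PCR copies count as reads, and intervals and floors cover counting error only. The candidate TSSs took 29.5% and 30.7% of all reads in nerve and 36% and 35% in S16. In nerve the 10 most abundant TSSs held 45.3% and 45% of the candidate reads, against 18.3% and 17.7% in S16. No read was listed for 223 and 71 candidates in the nerve libraries and for 945 and 920 in S16. Replicates correlated across TSSs with r = 0.877 in nerve and 0.967 in S16 on the log2(RPM + 1) scale, and the median SD between replicates was 0.359 and 0.209 log2 units.

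Markers of the Schwann cell lineage were present in both sample types. Sox10 had 48.6 and 42.4 RPM in the nerves and 90.7 and 77.5 RPM in S16, and Erbb3, the neuregulin receptor, had 9.6 and 11.7 RPM against 21.6 and 24.1 RPM. Summed over the 5 of 10 listed Schwann cell markers with a candidate TSS, nerve had 19930 and 21260 RPM and S16 3229 and 3183 RPM. Of these 5 genes 3 were higher (Sox10, Erbb3 and Ngfr) and 2 lower, S100b among them, in S16, or 1 and 2 after TMM or median-ratio scaling, and 1 and 2 also without nerve 1, without nerve 2 or without S16 1.

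Other cell types of the nerve were represented by few candidate TSSs. Fibroblast markers had 7 of 16 genes, with sums of 1224 and 1997 RPM in nerve and 3480 and 2866 RPM in S16, of which Col1a1 was the most abundant. Within that list Igfbp6 and Clec3b were lower in S16, with 678 and 1372 RPM in nerve against 0 and 1.92 RPM for Igfbp6 and with Clec3b at 0 in S16, whereas Col1a1, Gsn and Sod3 were higher. Pdgfra, a defining fibroblast receptor, had 3.71 and 2.5 RPM in nerve and 1.29 and 0.674 RPM in S16 and was not called. Perineurial markers had 1 of 9 genes, Itgb4, at 0 in S16. The single pericyte gene, Pdgfrb, fell from 27.1 and 51.2 RPM in nerve to 3.14 and 5.52 RPM, and the single adipocyte gene, Cfd, fell from 76.1 and 34.9 RPM to 1.56 and 2.23 RPM. Pdgfrb was not called without nerve 1 or without nerve 2, and Cfd was not called without nerve 1. Calls of markers were also lost for Igfbp6 and Gsn without nerve 2, for Cd48 without nerve 1 or without nerve 2, and for Clec3b and Csf1r without S16 1 or without S16 2. Of the 19 leukocyte markers 2 were measured: Csf1r, the macrophage colony stimulating factor receptor, was at 0 in S16, and Cd48 had 306 and 232 RPM in nerve and 157 and 130 RPM in S16. Endothelial, skeletal muscle and erythroid markers had no candidate TSS. How much of any difference below came from these other cells was not tested.

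Of the 4659 TSSs tested, 1108 (23.8%) were higher and 983 (21.1%) lower in S16 at a limma adjusted p under 0.05, and 2568 (55.1%) were not called. The TSSs higher in S16 lay at 1063 genes with a median of 20.6 RPM in nerve and 73.3 RPM in S16. Those lower in S16 lay at 484 genes with medians of 5.6 and 0.0389 RPM. Of the losses 724 were 10-fold or more by the ratio of means, or by its bound where S16 had no read, and of the gains 65. These counts cannot be compared directly, since every candidate had a mean of at least 1.82 RPM in nerve, so that any TSS with no read in S16 was past 10-fold. Over all TSSs tested the medians were 7.76 RPM in nerve and 8.31 RPM in S16, with a median log2 difference (S16 minus nerve, on the log2(RPM + 1) scale) of 0.02. At 3429 TSSs (73.6%), including every TSS called, both libraries of 1 group were above both of the other. In 245 TSSs at least 1 nerve library was at or under 1 RPM, and 16 of these were called higher.

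The balance of gains and losses depended on the scaling. With RPM as deposited, 53% of the calls were gains. TMM scaling, fitted on the candidate TSSs, moved the median log2 difference by -0.35 and gave 815 higher and 1187 lower TSSs (40.7% gains), and median-ratio scaling moved it by -0.42 and gave 761 and 1236 (38.1%). Both scalings shifted the differences downward, so that all 983 TSSs called lower stayed lower under both is no test of them. Of the 1108 TSSs called higher, 815 stayed higher with TMM and 761 with median-ratio scaling. None was called in the opposite direction. Leaving out nerve 1 or nerve 2 left 654 or 639 TSSs higher, and leaving out S16 1 or S16 2 left 448 or 442 lower.

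**Figure D1:**
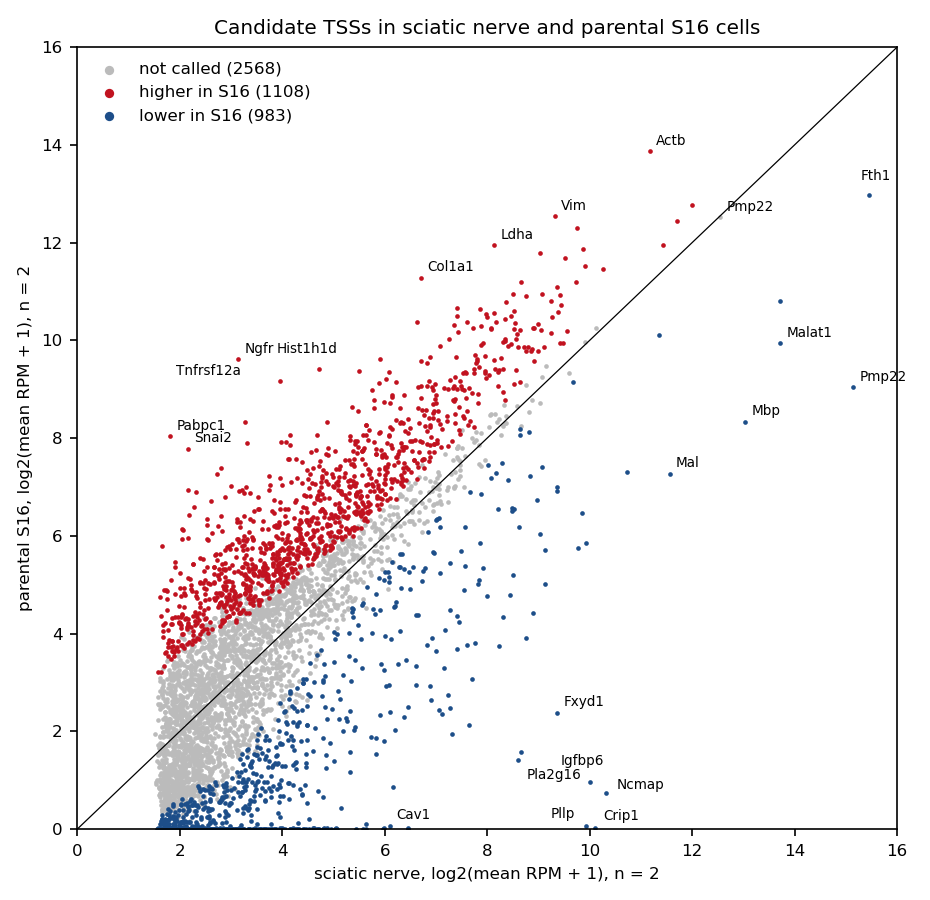
Mean level of each of the 4659 TSSs in sciatic nerve (x axis) and parental S16 cells (y axis), both as log2(mean RPM + 1) with n = 2 libraries each, coloured by the limma call. The diagonal marks equal levels. Points below it reach the x axis, where TSSs such as those of Crip1 and Pllp had almost no read in S16, while gains such as Actb and Vim stayed closer to the diagonal.

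Counted once per gene, at its main TSS (the one with the highest mean of the 2 group means), gains outnumbered losses. Of 2937 main TSSs, 1053 (35.9%) were higher and 321 (10.9%) lower in S16, with a median log2 difference of 0.65. TMM scaling gave 782 and 436 (median 0.28) and median-ratio scaling 731 and 466 (median 0.21). Without nerve 1 the counts were 634 and 186, without nerve 2 they were 610 and 185, without S16 1 they were 848 and 201, and without S16 2 they were 893 and 196. Of the remaining 1471 TSSs with a symbol, minor TSSs of their genes, 51 (3.47%) were higher and 544 (37%) lower. Since the S16 level helped to decide which TSS was the main one, part of this contrast is built in. With the main TSS chosen by its nerve level alone, an alternative added after seeing the data, 1042 main TSSs were higher and 330 lower, and 62 minor TSSs were higher and 535 lower. Minor TSSs were narrow, with a median width of 18 bp against 78 bp for main TSSs, and had median levels of 4.34 RPM in nerve and 1.58 RPM in S16. Of the 251 TSSs without a gene symbol 118 (47%) were lower and 4 higher.

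Loss was also counted by level in the same 4 libraries, so these counts are no separate support for the calls. Of 4414 TSSs above 1 RPM in both nerves, 3238 (73.4%) were above 1 RPM in both S16 libraries, 439 in 1 of them, and 737 (16.7%) were at or under 1 RPM in both. These 737 lost TSSs, which met the minimum through the nerve libraries alone, had a median of 3.32 RPM in nerve, and 454 of them had no read in either S16 library. Only 75 were above 10 RPM in nerve. Of the 629 lost TSSs with a symbol, 394 lay at 212 genes that kept another TSS above 1 RPM in both S16 libraries, whereas 177 genes were left with none.

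At the top of the losses were 7 TSSs above 50 RPM in nerve, at Crip1, Pllp, Hspa2, Cav1 and Chp2 and at second TSSs of Igfbp6 and Pla2g16. Crip1, which encodes a small LIM domain protein, had 929 and 1257 RPM in nerve and 0 and 0.0259 RPM in S16, a single read. The ratio of the nerve mean to this 1 read over the reads of both S16 libraries together was 90520, with a counting interval of 16250 to 3575000. Pllp encodes plasmolipin, a membrane protein of myelin, and had 981 and 960 RPM in nerve against 0 and 0.0778 RPM in S16. That is 3 reads, and the ratio formed the same way was 26790 with an interval of 9168 to 129900. Both genes were thus near the limit of detection in the line while among the stronger TSSs of nerve.

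Hspa2, a chaperone of the Hsp70 family, had 89.5 and 84.3 RPM in nerve and no read in S16, at least 1194-fold lower. Cav1, the scaffold protein of caveolae, had 62.1 and 72.8 RPM against 0 and 0.104 RPM, which is 4 reads. Chp2, a binding partner of sodium-proton exchangers, had 53.6 and 70.8 RPM in nerve and 0 and 0.0259 RPM in S16, a single read. The groups were far apart at each of them. The second TSS of Igfbp6 had 73.8 and 99 RPM in nerve and 0 and 0.0259 RPM in S16, and that of Pla2g16, a phospholipase, had 62.6 and 61.1 RPM and no read, at least 849-fold lower.

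In the primary Schwann cells under control treatment 4 of these 7 TSSs were at 0. Crip1 was abundant there, with 672 ± 17.9 RPM under control treatment and 2034 ± 44.4 RPM with cAMP (SD, n = 3 each), and had no read in the ΔSOX10 clones. Pllp was low without cAMP, at 1.3 ± 1.24 RPM, and had 174 ± 10.6 RPM with it, and Hspa2 had 18.2 ± 3.99 and 53.4 ± 6.35 RPM. Chp2 had no read without cAMP and 7.75 ± 3.34 RPM with it. The second TSS of Igfbp6, a binding protein of insulin-like growth factors, was at 0 in control cells, after cAMP and in the clones. The Cav1 TSS had 0 RPM in control cells, 1.02 ± 1.25 RPM after cAMP and 26.7 ± 16.1 RPM in the ΔSOX10 clones (SD, n = 4), and the second TSS of Pla2g16 had 0, 1.09 ± 1.89 and 0.0713 ± 0.143 RPM. Primary cells were sequenced on another instrument, so these levels are set side by side without a test against nerve or S16.

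Other large losses included main TSSs that left some signal in S16. Ncmap, a protein of noncompact myelin, had 1399 and 1152 RPM in nerve and 1.22 and 0.104 RPM in S16 (1926-fold, log2 difference -9.66 ± 0.359 SE, limma adjusted p = 2.38e-05). The main TSS of Igfbp6 was 1069-fold lower by the ratio of means, with an adjusted p of 9.4e-05 that rose to 0.0602 when nerve 2 was left out. The main TSS of Pla2g16 fell from 402 and 370 RPM to 1.4 and 1.94 RPM. A pair of regulators of the sodium pump followed. Fxyd6 had 402 and 401 RPM in nerve and 1.47 and 2.51 RPM in S16 (202-fold), and Fxyd1, phospholemman, had 642 and 678 RPM and 5.27 and 3.14 RPM (157-fold). Itgb4, the beta-4 integrin of laminin receptors, had 47.2 and 50.7 RPM in nerve and no read in S16, at least 672-fold lower.

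Of the listed myelin genes, that is genes of myelin proteins and their assembly, 29 were tested, and at their main TSS 17 (58.6%) were lower and 7 (24.1%) higher in S16, against 10.9% and 35.9% of all genes, with a median log2 difference of -1.24 against 0.65. Median-ratio scaling gave 17 lower and 4 higher. The lower count ranged from 12 to 15 with a library left out, but the higher count was 2 without nerve 1, 1 without nerve 2, 4 without S16 1 and 5 without S16 2. The summed level of the list was 81450 and 81880 RPM in nerve and 12180 and 11750 RPM in S16.

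Compact myelin proteins were reduced to unequal degrees. Mbp, which compacts the cytoplasmic faces, had 10140 and 6615 RPM in nerve and 356 and 288 RPM in S16 (26-fold, log2 difference -4.67 ± 0.217 SE, limma adjusted p = 4.26e-05). Mal, a lipid raft protein, had 3124 and 2907 RPM against 148 and 159 RPM (19.6-fold, adjusted p = 1.18e-05). Both nerves were above both S16 libraries at each, and S16 still had both genes well above the level of 3 reads. In the primary cells Mbp had 215 ± 23 RPM without cAMP and 1336 ± 156 RPM with it, and Mal 0.122 ± 0.0896 and 371 ± 66.3 RPM (SD, n = 3). In the ΔSOX10 clones the means of these TSSs were 2.92 and 0.392 RPM.

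Smaller losses were measured for Plekhb1 (16.6-fold), the kinesin Kif13b (5-fold), Ndrg1, a gene of demyelinating neuropathy (4.66-fold), Cmtm5 (3.98-fold), Bcas1 (3.59-fold), the tetraspanin Cd9 (2.38-fold), Lgi4, a secreted signal between Schwann cells and axons (2.18-fold), and the morphogen Dhh (1.64-fold). Dhh had 45.3 and 53.5 RPM in nerve and 29.3 and 30.9 RPM in S16, and its adjusted p of 0.0494 was close to the threshold. Without nerve 1 or without nerve 2 Kif13b, Bcas1, Lgi4 and Dhh were not called, nor was Cd9 without nerve 1, and Lgi4 and Dhh were not called without S16 1 or without S16 2 either. A few genes of the same list were higher in the line. Cnp, an enzyme of noncompact myelin, had 167 and 157 RPM in nerve and 468 and 400 RPM in S16 (2.67-fold, adjusted p = 0.00063). Lpar1, a lysophosphatidic acid receptor, had 18.4 and 14.1 RPM against 43.5 and 52.7 RPM. Gldn, the nodal protein gliomedin, had 36.6 and 31.3 RPM against 81.1 and 54.6 RPM, and Jam3, an adhesion molecule, had 52.7 and 35.9 RPM against 94.7 and 81.6 RPM. Gldn and Jam3 were not called with TMM or median-ratio scaling, these 2 and Lpar1 were not called without nerve 1 or without nerve 2, and Cnp was not called without nerve 2. Mag, an adhesion protein next to the axon, had 20 and 21.1 RPM in nerve and 35.6 and 33.6 RPM in S16 and was not called (adjusted p = 0.0594). The deacetylase Sirt2 and the kinase Aatk were not called either, and their 95% intervals lay within a 2-fold change.

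**Figure D2:**
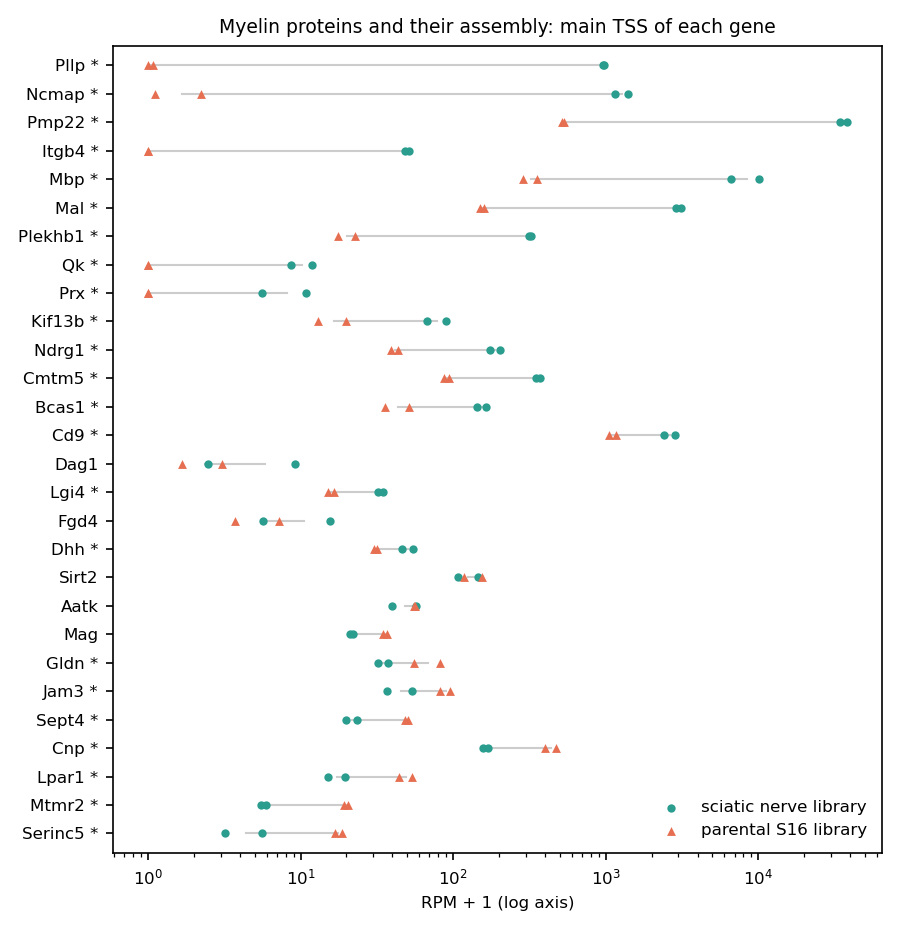
Level of the main TSS of myelin genes in each library (RPM + 1, log axis), with circles for the 2 nerves, triangles for the 2 S16 libraries, grey lines joining the group means and an asterisk for a limma call. Pllp and Itgb4 are among those at the left edge in S16, Cd9 stays above 1000 RPM there, and the 7 genes from Gldn down are higher in S16.

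A kept level was read from the interval of the difference and not from the lack of a call. At 267 TSSs (5.73%) the 95% interval of the log2 difference lay between -1 and 1, that is within a 2-fold change either way. Of these 20 were also called, with small differences. Their genes numbered 260 and their median level was 66.5 RPM in nerve, since a narrow interval needs a high level: its median half-width was 0.51 log2 units here and larger over all TSSs. The estimate itself lay within 2-fold at 2029 TSSs (43.6%). Counted at main TSSs, 243 of 2937 genes (8.27%) were kept by the interval. Leaving out S16 1 or S16 2 lowered the 267 to 140 or 135, and a pseudocount of 5 in place of 1 raised it to 1120.

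The most abundant kept TSS was the downstream Pmp22 TSS, with 6270 and 5680 RPM in nerve and 5870 and 5840 RPM in S16 (log2 difference -0.03 ± 0.108 SE). Next came Cryab, a small heat shock protein, with 2703 and 2821 RPM against 3930 and 4010 RPM, a called gain of 1.44-fold. Dbi, the acyl-CoA binding protein, had 1133 and 1103 RPM in nerve and 1099 and 1328 RPM in S16, and the tetraspanin Cd81 had 983 and 935 RPM against 1040 and 950 RPM. The libraries of the 2 groups overlapped for Dbi and Cd81. Tecr, an enzyme of very long chain fatty acid elongation, was 1.44-fold lower. Dynlrb1, a dynein light chain, had 762 and 785 RPM against 649 and 628 RPM. Serf2, the histone H3f3a and the GTPase Cdc42 were 1.54-fold, 1.39-fold and 1.25-fold higher by the ratio of means, and all but Cdc42 were called. Under TMM scaling the differences of Dbi, Cd81 and Cdc42 turned negative, at -0.30, -0.36 and -0.09, and H3f3a had -0.02 with median-ratio scaling. The calls of Cryab, Serf2 and H3f3a were lost under both scalings, and with TMM scaling the downstream Pmp22 TSS was called lower with a log2 difference of -0.44, and with median-ratio scaling of -0.52.

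In the other cultures some of these TSSs had other levels. Cryab had 2265 ± 36.5 RPM in control primary cells and 103 ± 10.3 RPM after cAMP (SD, n = 3). Cd81, at nerve levels in parental S16, had a mean of 0.547 ± 0.217 RPM in the ΔSOX10 clones (SD, n = 4). Dbi had 2130 ± 34.5 RPM in control cells, 2615 ± 56.2 RPM after cAMP and 360 ± 43.8 RPM in the clones. The means of Tecr, Dynlrb1, Serf2, H3f3a and Cdc42 in these 3 cultures lay between 358 and 1520 RPM.

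Pmp22 thus held a TSS called lower and a kept TSS within the same gene. Its upstream TSS (chr10:49316968-49317054, rn5, plus strand) had 34270 and 38190 RPM in nerve, the second highest level of all candidates there, and 534 and 514 RPM in S16 (69.2-fold lower, log2 difference -6.11 ± 0.11 SE, limma adjusted p = 2.95e-06). The downstream TSS (chr10:49319494-49319573) starts 2526 bp further on. Of the reads at this pair, 84.5% and 87.1% were at the upstream TSS in nerve, and 8.33% and 8.09% in S16. Summed over all its TSSs, Pmp22 had 42330 and 45600 RPM in nerve and 6707 and 6671 RPM in S16. Of its 21 tested TSSs 18 were lower and none was higher. In primary cells the upstream TSS went from 1.29 ± 1.12 RPM to 19.5 ± 4.73 RPM with cAMP, and the downstream TSS 412 ± 33.9 and 3493 ± 436 RPM (SD, n = 3).

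Unequal use of TSSs within genes was tested with diffSplice at 586 genes holding 2057 TSSs, and 254 genes (43.3%) were called. The call was frequent and depended on the replicates, with 61 genes without S16 1 and 96 without S16 2. A separate fit without TSSs under a mean of 5 RPM called 134 of 245 genes, and of the 122 called genes that could still be tested it called 108. In 70 of the called genes 1 TSS was higher and another lower. The most abundant TSS differed between nerve and S16 at 78 genes, of which 34 were called.

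Vim, which encodes the intermediate filament vimentin, had 34 tested TSSs. The main one had 622 and 659 RPM in nerve and 6183 and 5767 RPM in S16 (9.33-fold, adjusted p = 2.14e-05), and its share of the gene's summed level went from 48.3% to 91.6%. Of the other Vim TSSs 7 were lower and 1 higher. The next strongest, about 5 kb downstream, had 145 and 178 RPM in nerve and 110 and 141 RPM in S16 and was not called. Ptma, prothymosin alpha, showed the same form, with 56.1 and 76.7 RPM at its main TSS in nerve and 642 and 656 RPM in S16, or 55.1% and 92.2% of the gene, while a TSS with 1.81 and 6.25 RPM in nerve had 1 read in each S16 library. At Zyx and Fam162a a minor TSS was lower while the main TSS was higher, with main shares of 78.3% and 99.9% for Zyx and 94.1% and 99.8% for Fam162a. The call of the minor Zyx TSS, with 1.54 and 3.44 RPM in nerve, was lost with any 1 library left out.

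Dut, the enzyme that removes dUTP, had another leading TSS in S16 by mean level, though in S16 2 the pair was nearly equal. The upstream TSS had 30.5 and 44.2 RPM in nerve and 28.5 and 20.5 RPM in S16 and was not called. Its share of the gene was 77.2% in nerve and 44.6% in S16. A TSS about 0.5 kb downstream had 2.14 and 2.61 RPM in nerve and 35.7 and 21.2 RPM in S16 (12-fold, adjusted p = 0.0034), so that its share went from 4.91% to 51.7%. Without nerve 1 or without nerve 2 its adjusted p was 0.0863 or 0.085.

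**Figure D3:**
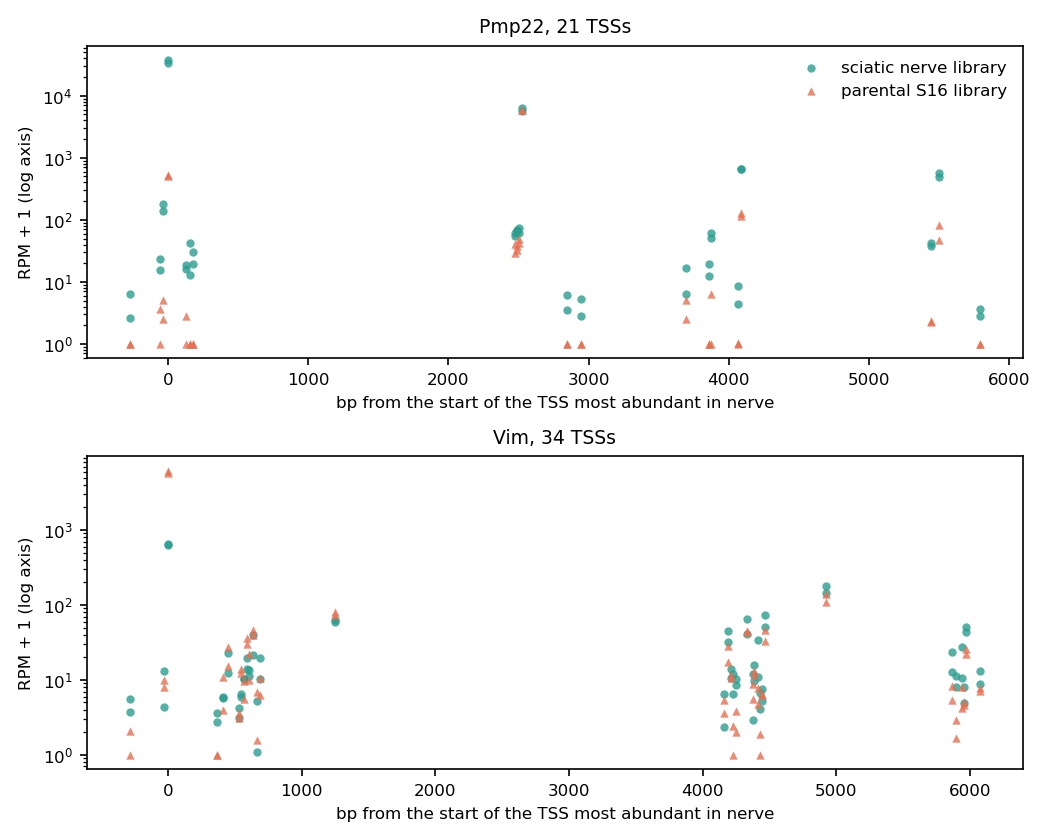
Level of each tested TSS of Pmp22 (21 TSSs, upper panel) and Vim (34 TSSs, lower panel) in each library (RPM + 1, log axis) against its distance in bp from the start of the TSS most abundant in nerve. At Pmp22 the circles of nerve and the triangles of S16 meet at the TSS 2526 bp downstream and part at the first, and at Vim the first TSS alone rises far above the nerve level.

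Schwann cell regulators moved in both directions. Of 22 tested, 9 (40.9%) were higher and 4 (18.2%) lower in S16 with a median of 0.56, near the 35.9%, 10.9% and 0.65 of all genes. The split was 6 and 5 after TMM and 5 and 6 after median-ratio scaling, and 4 were higher without nerve 1 or without nerve 2. Sox10 itself was 1.85-fold higher (log2 difference 0.87 ± 0.203 SE, limma adjusted p = 0.0149), with both S16 libraries above both nerves. That call was lost with TMM (log2 difference 0.46, adjusted p = 0.105) and median-ratio scaling (0.38 and 0.165), and without nerve 1 (0.97 and 0.0814), nerve 2 (0.78 and 0.109) or S16 1 (0.76 and 0.136). Egr2, its partner at myelin genes, had 28.1 and 4.72 RPM in nerve and 21 and 8.4 RPM in S16. The replicates of Egr2 differed more than the groups, and no change was detectable (adjusted p = 0.892).

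The regulators lower in S16 were led by Etv1, an ETS factor, with 30.1 and 20.2 RPM in nerve and no read in S16, at least 345-fold lower. Ebf1, a helix-loop-helix factor, had 48.7 and 55.7 RPM against 0.565 and 4.77 RPM (19.6-fold, adjusted p = 0.00355). Nr2f2, an orphan nuclear receptor, had 17.3 and 11.6 RPM against 2.55 and 2.23 RPM, and Jund, an AP-1 subunit, had 2.31 and 7.19 RPM in nerve and no read in S16. Ebf1 and Nr2f2 were not called without nerve 1 or without nerve 2, nor Jund without S16 1 or without S16 2.

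Snai2, a repressor known from neural crest and epithelial-mesenchymal transition, showed the largest gain of the listed regulators, from 6.76 and 0.208 RPM in nerve to 215 and 222 RPM in S16 (62.7-fold, adjusted p = 0.00163). Cited2, a CBP-binding coregulator, rose from 7.29 and 8.1 RPM to 79.9 and 73.6 RPM (9.97-fold), and Stat3, the cytokine signal transducer, from 6.69 and 14.4 RPM to 100 and 85.2 RPM (8.82-fold). Id3, an inhibitor of helix-loop-helix factors, had 227 and 207 RPM in nerve and 828 and 824 RPM in S16. Jun, the AP-1 subunit that opposes myelination, had 17.5 and 15.2 RPM against 74.2 and 52.4 RPM (3.87-fold, adjusted p = 0.00297). Zfp36, Hes1 and Srebf2 were the other gains, at 4.01-fold, 2.92-fold and 2.6-fold. These 3 and Jun were not called without nerve 1 or without nerve 2, and the 3 were not called with median-ratio scaling. Nr4a1, Cux1, Id2, Id4, Axin2, Klf9, Srebf1 and Ets1 were not called.

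All 10 tested markers of immature and repair Schwann cells were higher in S16, against 35.9% of all genes, with a median of 2.63 (8 without nerve 1 or without nerve 2, and 9 after median-ratio scaling). Ngfr, the low affinity neurotrophin receptor, had 4.52 and 11.1 RPM in nerve and 792 and 780 RPM in S16 (101-fold, log2 difference 6.59 ± 0.359 SE, adjusted p = 6.92e-05). Tnfrsf12a, the receptor of the cytokine TWEAK, had 8.63 and 20.507 RPM against 570 and 576 RPM (39.3-fold). Ncam1, a neural adhesion molecule, had 4.01 and 3.65 RPM against 104 and 87.5 RPM (25-fold). The growth arrest gene Gadd45a was 14.1-fold higher, Vim 9.33-fold, Mcam 4.37-fold, Tgfbi 3.38-fold, S100a4 3.09-fold and Sparc 1.71-fold, the last not called with median-ratio scaling, without nerve 1 or without nerve 2. S100b, a calcium-binding protein of mature Schwann cells, went the other way, from 1869 and 1520 RPM to 162 and 151 RPM (10.8-fold, adjusted p = 3.39e-05).

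In primary Schwann cells 6 of these 10 markers were lower and 1 higher after cAMP, against 14% and 13.6% of the 2825 main TSSs tested in both comparisons, which share no library. Ngfr went from 2622 ± 63 RPM to 794 ± 71.6 RPM and Tnfrsf12a from 585 ± 30.2 to 151 ± 11.1 RPM (SD, n = 3 each, limma adjusted p = 4.29e-15 and 5.05e-13). Vim was the gain, from 14650 ± 663 to 19130 ± 659 RPM (adjusted p = 3.42e-08), and Sparc, with 7060 ± 213 and 6719 ± 264 RPM, was not called. Of the regulators, Snai2 went from 58.5 ± 18.1 to 2.54 ± 2.82 RPM (adjusted p = 5.64e-07). In the ΔSOX10 clones Ngfr had 1.51 ± 0.883 RPM and Tnfrsf12a 860 ± 212 RPM (SD, n = 4).

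**Figure D4:**
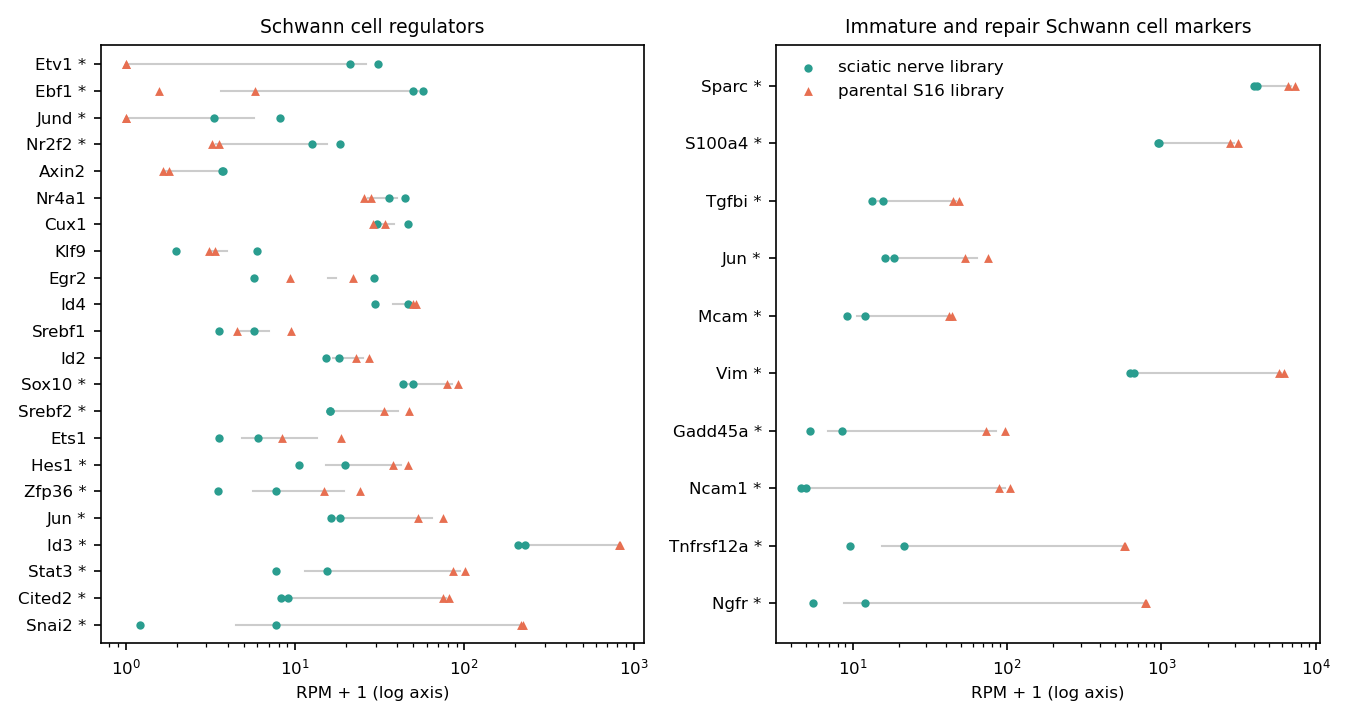
Level of the main TSS of 22 Schwann cell regulators (left) and 10 markers of immature and repair Schwann cells (right) in each library (RPM + 1, log axis), with circles for the 2 nerves, triangles for the 2 S16 libraries, grey lines joining the group means and an asterisk for a limma call. Regulators fall on both sides, the Egr2 libraries interleave, and all markers on the right are higher in S16.

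With Ngfr, Tnfrsf12a and Snai2, the largest gains included Pabpc1, Tubb6, Fkbp10, Hist1h1d, Nipsnap3b, Ugdh, Zyx and Col1a1. Pabpc1, the cytoplasmic poly(A)-binding protein, had 2.68 and 2.37 RPM at the listed TSS in nerve and 274 and 252 RPM in S16 (104-fold, adjusted p = 3.04e-05). Col1a1, the alpha 1 chain of type I collagen, had 110 and 96.2 RPM against 2770 and 2200 RPM (24.1-fold). The linker histone Hist1h1d had 20.6 and 29.8 RPM against 661 and 692 RPM (26.9-fold). Tubb6, a beta tubulin, was 36.8-fold higher, Ugdh, which makes the UDP-glucuronate of glycosaminoglycans, 27.9-fold, and the focal adhesion protein Zyx 26.5-fold. Nipsnap3b had 6.15 and 0.0521 RPM in nerve and 67.2 and 71 RPM in S16, and DESeq2 did not call it (adjusted p = 0.127).

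Abundant transcripts changed as well. Fth1, the ferritin heavy chain, led in nerve with 42520 and 47480 RPM and had 8397 and 7707 RPM in S16 (5.59-fold lower, adjusted p = 4.26e-05). Malat1, a nuclear long noncoding RNA, was 13.6-fold lower. Actb, the cytoplasmic beta actin, led in S16 with 15600 and 14300 RPM against 2105 and 2504 RPM in nerve (6.49-fold higher, adjusted p = 4.33e-05), and Cfl1, the actin-severing cofilin, was 4.48-fold higher. Oaz1, the ornithine decarboxylase antizyme, was 6.72-fold higher. Fth1, Actb, ribosomal proteins and the Tuba1a TSS listed on chromosome X have near-identical copies in the genome, among which reads could have been divided.

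Genes of protein synthesis and turnover were higher more often than the 35.9% of all genes by count. At their main TSSs 41 of 44 ribosomal proteins (93.2%) were higher and none lower (median 1.57 against 0.65 over all genes), or 39 and 1 after TMM scaling, with Rps26 at 264 and 239 RPM in nerve and 1340 and 1630 RPM in S16 (5.91-fold) and Rpl13 at 873 and 860 RPM against 4920 and 5079 RPM (5.77-fold). Of 18 proteasome genes 17 (94.4%) were higher and none lower (median 1.52), although 9 were called without nerve 1 and 11 without nerve 2, and 14 were higher and 1 lower after either scaling. Psmd5, a proteasome assembly chaperone, was 4.67-fold higher and the subunit Psmd8 3.59-fold, with the call of Psmd5 lost without nerve 2 and that of Psmd8 without nerve 1. Among 38 chaperones and genes of the unfolded protein response 26 (68.4%) were higher and 2 lower (median 1.5). Serpinh1, the collagen chaperone, had 98.3 and 97.4 RPM in nerve and 1380 and 1270 RPM in S16 (13.5-fold), and the mitochondrial chaperonin Hspd1 had 19.9 and 13.7 RPM against 241 and 224 RPM (13.8-fold). The exceptions were Hspb2, a small heat shock protein (3.8-fold lower), and the co-chaperone Dnajc7 (8.45-fold lower), whose call was lost without nerve 1 or without nerve 2.

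With RPM as deposited, energy metabolism genes were also higher more often than all genes (35.9%) by count. After median-ratio scaling 731 of all 2937 genes were higher and 466 lower, a share that the mitochondrial ribosome list came near. Fewer of all genes were also called with 1 library left out, so such counts are not comparable with the 35.9%. Glycolysis and the pentose phosphate pathway had 7 of 12 genes (58.3%) higher and none lower (median 1.30), or 6 higher and 1 lower after median-ratio scaling. Ldha, which reduces pyruvate to lactate, had 276 and 283 RPM in nerve and 4190 and 3720 RPM in S16 (14.1-fold, adjusted p = 1.87e-05), and Pgls of the pentose phosphate pathway was 6.75-fold higher. Respiratory chain and ATP synthase genes were higher at 33 (71.7%) and lower at 2 of 46 (median 0.97), with 22 and 5 after median-ratio scaling, and with 19 higher without nerve 1 and 21 without nerve 2. Atp5f1b, the catalytic beta subunit of ATP synthase, had 136 and 169 RPM against 1069 and 1012 RPM (6.83-fold). Of 35 mitochondrial ribosome genes 21 (60%) were higher and 1 lower (median 0.94), with 10 and 2 after median-ratio scaling and 10 higher without nerve 1 or without nerve 2. Mrpl10 was 4.46-fold higher.

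Genes of DNA replication and mitosis were higher at 17 (68%) and lower at 1 of 25, against 35.9% and 10.9% of all genes (median 2.12), with 11 higher without nerve 2. Pcna, the sliding clamp of DNA polymerase, had 52.8 and 39 RPM in nerve and 215 and 210 RPM in S16 (4.64-fold), the flap endonuclease Fen1 1.37 and 3.31 RPM against 28.6 and 29.1 RPM (12.3-fold), and the G1 cyclin Ccnd2 20.8 and 30.8 RPM against 182 and 184 RPM (7.1-fold). Cell cycle inhibitors were divided, with 5 of 12 (41.7%) higher, near the 35.9% of all genes, and 3 lower. Their median of 0.35 turned to -0.04 with TMM and -0.12 with median-ratio scaling, and 1 gene was lower without nerve 1 or without nerve 2. Cdkn1b, the cyclin-dependent kinase inhibitor p27, had 19.8 and 35.6 RPM against 2.1 and 7.15 RPM (5.98-fold lower, not called without nerve 1 or without nerve 2), while Gadd45a was among the gains.

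Cholesterol and fatty acid synthesis genes were more often lower than all genes by count. Of 22, 8 (36.4%) were lower and 4 (18.2%) higher, against 10.9% and 35.9%, and the summed level was 1784 and 1750 RPM in nerve and 1329 and 1233 RPM in S16. The median log2 difference was -0.04 against 0.65 over all genes. While 8 stayed the number of lower genes with either scaling, 1 remained higher with TMM scaling and none with median-ratio scaling. With a library left out these counts were 3 and 2 without nerve 1, without nerve 2 or without S16 2, and 5 and 3 without S16 1. Sc5d, of the last steps of cholesterol synthesis, had 182 and 174 RPM in nerve and 49 and 51.8 RPM in S16 (3.53-fold lower), and Idi1, the isopentenyl diphosphate isomerase, had 287 and 304 RPM against 89.8 and 95.6 RPM (3.19-fold lower). Acly, which supplies cytosolic acetyl-CoA, was 3.17-fold higher but not called with median-ratio scaling, without nerve 1 or without nerve 2.

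**Figure D5:**
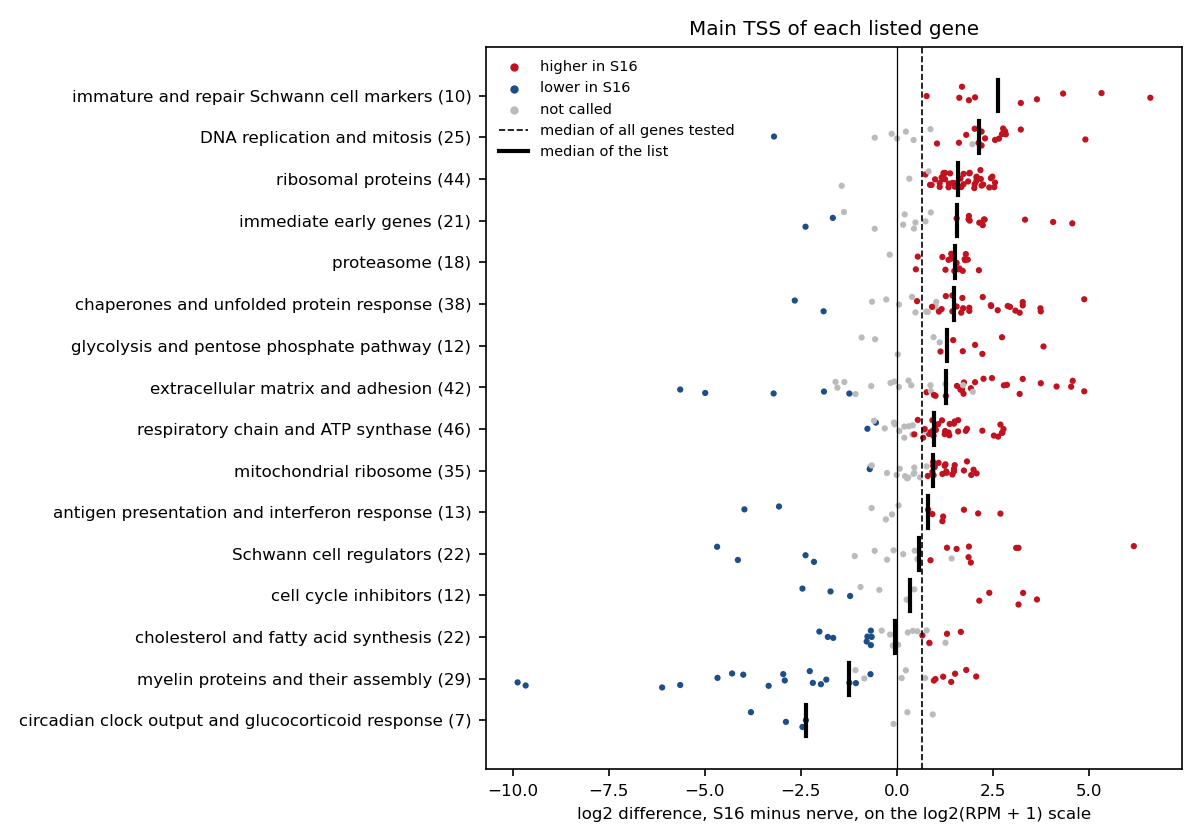
Log2 difference (S16 minus nerve, log2(RPM + 1) scale) of the main TSS of each listed gene, 1 row per list with the number of genes tested in brackets, coloured by the limma call. The thick bar is the median of a list, the solid line marks 0 and the dashed line the median of all 2937 genes, 0.65. Myelin and circadian lists have their medians well left of 0 and the ribosomal and proteasome genes form narrow groups right of the dashed line.

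Extracellular matrix and adhesion genes were higher at 22 (52.4%) and lower at 5 (11.9%) of 42 (median 1.26), against 35.9% and 10.9% of all genes, or 18 and 8 after TMM and 16 and 9 after median-ratio scaling. The fibroblast marker Col1a1 is among the gains and was 24.1-fold higher, beside the summed fibroblast markers given above, and the part of other cells in this list was not tested. Cdh13, a cadherin without a cytoplasmic tail, had 5.62 and 5.6 RPM in nerve and 166 and 138 RPM in S16 (27.1-fold), and the adhesion molecule Alcam was 25.2-fold higher, though not called without nerve 2. F11r, a tight junction molecule, was among the losses with 25.1 and 38.9 RPM in nerve and 0 and 0.0259 RPM in S16, a single read.

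Immediate early genes respond within minutes to growth factors. Of 21 tested, 11 (52.4%) were higher and 2 (9.52%) lower (median 1.55), against 35.9% and 10.9% of all genes. After TMM scaling 9 were higher and 4 lower, against 782 and 436 of all 2937 genes. With 1 library left out fewer of all genes were called too, so counts in such fits are not comparable with the 35.9% and 10.9%. Without nerve 1 the higher count was 7, without nerve 2 it was 5, and the lower count was 1 without S16 1 and 0 without S16 2. Fos, the partner of Jun in AP-1, had 4.11 and 3.86 RPM in nerve and 134 and 102 RPM in S16 (29.6-fold, adjusted p = 0.000113), Dusp6, a phosphatase of ERK, was 19.4-fold higher and Ier2 10.2-fold, both not called without nerve 2. In contrast, none of 7 genes of circadian clock output and the glucocorticoid response was higher and 4 (57.1%) were lower, with a median of -2.37 (-2.89 with genes at 0 set to their bound) and 2 lower in each case with a library left out. Tef, a clock-controlled transcription factor, had 20.7 and 19.2 RPM in nerve and 1.24 and 0 RPM in S16, and was not called without nerve 1 or without nerve 2.

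Of 13 genes of antigen presentation and the interferon response, 7 (53.8%) were higher and 2 (15.4%) lower. Over all genes these shares were 35.9% and 10.9% (medians 0.81 for the list and 0.65). After TMM scaling 4 were higher and 4 lower, against 782 and 436 of all 2937 genes. Since calls over all genes fell with 1 library left out, such counts of the 13 listed genes are not comparable with these shares. Their higher count was 2 without nerve 1, 3 without nerve 2 and 4 without S16 2, and the lower count was 1 without either nerve and 3 without S16 1. Slfn2 had 14.9 and 14.9 RPM in nerve and 0.0226 and 0 RPM in S16, a single read, and Tnfsf12, the cytokine TWEAK, had 15.1 and 15.9 RPM against 2.87 and 0 RPM, a call lost without nerve 1 or without nerve 2. The MHC class I light chain B2m had 410 and 516 RPM against 872 and 875 RPM (1.89-fold higher, not called with median-ratio scaling).

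The classes of TSS also differed in features that were not used to form them, given here as descriptions. TSSs higher in S16 overlapped their listed SOX10 peak in 72.5% of cases, those lower in 36.6%, and those not called in 52.7%, against 54% over all TSSs tested. The kept TSSs, whose narrow interval needs a high level (median 66.5 RPM in nerve), overlapped it in 71.5%. The lost TSSs, which met the minimum through nerve alone (median 3.32 RPM there), overlapped it in 28.9%. Both classes were selected on level, so no conclusion is drawn from this pair of shares. The lower class included 641 of the lost TSSs. Its medians were 5.6 RPM in nerve and 0.0389 RPM in S16, against 20.6 and 73.3 RPM for the higher class. The shares of the higher and lower classes are thus tied to level as well, and no conclusion is drawn from them either. Of the TSSs outside the SOX10 peak, the median gap was 240 bp for the higher, 1160 bp for the lower and 663.5 bp for all. H3K4me3 peaks of nerve were overlapped by 98.6%, 84.8% and 90.1% of the higher, the lower and all TSSs. Median widths were 80 bp for the higher, 35 bp for the lower, 106 bp for the kept and 24 bp for the lost TSSs. Level, width and being a main or minor TSS went together across these classes, and which of them the overlap followed was not tested.

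In primary Schwann cells, cAMP treatment is used to induce differentiation, and its effect was tested over its own 6 libraries. Of 4051 TSSs tested in both comparisons, 528 (13.0%) were higher and 445 (11%) lower after cAMP. Among those lower in S16 than in nerve, 565 were tested, and 145 (25.7%) were higher and 33 (5.84%) lower after cAMP. Those higher in S16 than in nerve were higher after cAMP in 16.4% and lower in 19.2% of cases, and those not called in 8.49% and 8.41%. The TSSs lower in S16 were often low in unstimulated primary cells also, where their median was 0.548 RPM. In all 3 control libraries 44.9% of them and 13.8% of all TSSs were at or under 1 RPM. Of the TSSs higher in S16 the share was 0.271%. These classes already differed in level, with medians of 5.6 RPM in nerve for the lower and 20.6 RPM for the higher TSSs. No conclusion is therefore drawn from these shares.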

How the data were processed

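The authors trimmed reads with Cutadapt 1.14, mapped them to rn5 with STAR 2.5.2a, handled alignments with SAMtools 1.9, grouped 5′ ends into TSSs by Paraclu and obtained counts with featureCounts (Subread 1.6.1). They deposited 1 table with 1 RPM column per library, scaled to all reads of that library, for candidate TSSs within 1 kb of nerve H3K4me3 peaks that overlapped SOX10 peaks. Whether strand was used in counting is not given in the sources used here. The deposited table also holds the authors' edgeR log2 fold changes and adjusted p-values, which were not used.

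RPM values are multiples of 1 read, which gave the library totals and whole reads for 100% of values in nerve and 94.1% and 93.7% in S16, within 0.05 reads. Part of the S16 values (9.07% and 9.35%) is rounded to 3 digits, so their reads are approximate, and for the second nerve the size of 1 read could not be checked.

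Since RPM are not counts, limma 3.58.1 was applied to log2(RPM + 1) (eBayes with trend, R 4.3.3) over the 2 nerve and 2 S16 libraries without covariates, two-sided, with Benjamini-Hochberg adjustment over all TSSs tested and a threshold of 0.05. Log2 differences understate the change of low TSSs, and those of TSSs near 0 reads depend on the pseudocount. A fold is the ratio of mean RPM. Against 0 reads it is a bound from 3 reads per library, and with 1 to 3 reads it is the ratio to those reads pooled over the depth of both libraries, with an exact Poisson interval at 95%. TSS use was tested with limma's diffSplice and Simes p-values, with TSSs on different chromosomes kept apart. The cAMP comparison used the same model over its 6 libraries, and ΔSOX10 clones are given as levels only. List counts were set beside the shares over all genes, with no set test. List members were matched by symbol: 12 to 46 genes per list had a tested TSS, except 10 for immature and repair markers and 7 for the circadian list, and the lists of cell type markers had 0 to 7.

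The members, lists and rules were chosen with earlier results of these data known. Named genes are the 12 with the largest difference in each direction among calls of at least 10 RPM with both libraries of 1 group above both of the other, the 10 kept genes highest in nerve, the 5 genes with the smallest adjusted p that held a higher and a lower TSS, Pmp22, the most abundant TSSs, lost TSSs above 50 RPM, list members of at least 10 RPM, and listed Schwann cell regulators and markers of other cell types at any level. Some genes that meet these rules are not reported here. Figures were drawn with matplotlib 3.10.9. For the alternatives, recovered reads went into edgeR 4.0.16 and DESeq2 1.42.0, beside other scalings, filters, pseudocounts and models, the main TSS chosen by nerve level alone (added after seeing the data), and each library left out in turn. The ChIP-Seq signal, gene ontology terms and TSSs outside the candidate set were not analysed here.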

Additional observations from a re-analysis of the deposited data

How the results depend on the processing

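Against 1108 TSSs higher and 983 lower, edgeR's quasi-likelihood test on recovered reads called 1015 and 781, its exact test 1071 and 841, DESeq2 777 and 1158, and the model over all 14 libraries 1265 and 1089. With the replicate block the counts were 1241 and 1077, but the numbers do not pair the samples (the deviations of same-numbered libraries correlated with r = 0.021), so this is no better estimate. A test against a 2-fold change (limma treat) left 392 higher and 261 lower. Fewer TSSs were lower where low ones were left out or merged: 418 of 3002 with a mean of at least 5 RPM, 495 of 3164 with 2 libraries above 5 RPM, and 356 of 2939 with TSSs summed per gene. With 1 library left out, where the lone library is assumed to vary like the other group, higher TSSs ranged from 639 to 926, lower ones from 442 to 678, kept ones from 135 to 238, genes with unequal TSS use from 61 to 236, listed genes higher from 146 to 196 (221 with all libraries) and lower from 29 to 38 (48 with all). A pseudocount of 5, which compresses low levels, gave 1120 kept TSSs in place of 267, and TSS use was called at 134 genes with a mean of at least 5 RPM and at 250 with edgeR's diffSpliceDGE. Of 112 list medians under alternatives 107 kept their direction. The cholesterol median ranged from -0.13 to 0.04 with a library left out (0.02 without S16 2), and the cell cycle inhibitor median from -0.12 to 0.81, and was -0.04 with TMM and -0.12 with median-ratio scaling. For 43 named TSSs, 444 of 516 values under alternatives kept direction and side of the threshold, and 14 changed sign, all at kept TSSs. With TMM, median-ratio scaling and DESeq2 these were -0.30, -0.38 and -0.38 for Dbi, -0.36, -0.45 and -0.45 for Cd81, and -0.09, -0.17 and -0.18 for Cdc42, and H3f3a had -0.02 with the latter pair. With a library left out the downstream Pmp22 TSS ranged from -0.1 to 0.04, Dbi from -0.02 to 0.25 and Cd81 from -0.01 to 0.12. Of 38 named TSSs called, 14 lost the call under at least 1 alternative. The causes of these shifts were not tested. Depth limits losses to the level of 3 reads, and 2 libraries per group limit every p-value.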
